A study of Mus musculus with 30 samples.

Results

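*Wsb2*, *Ina* and *Ggh* are 3 of the 18194 genes measured in single mouse primordial germ cells (PGCs), the founders of eggs and sperm. They were chosen from measured values of these same cells, because their mean level rose from cells labelled WT to *Prdm14*+/- to *Prdm14* KO, as that of the *Prdm14* transcript itself does. The 3 genes have 7 probe sets on the array, 3 for *Wsb2*, 3 for *Ina* and 1 for *Ggh*, and all 7 are described. Unless another is named, values are those of the probe set with the highest mean, 1421847_at for *Wsb2*, 1418178_at for *Ina* and 1419595_a_at for *Ggh*. The order of the 3 label means is thus what picked the genes and is given as a description only.

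PGCs arise among cells that would otherwise form mesoderm, and 3 transcription factors, PRDM1, PRDM14 and TFAP2C, direct them to the germ line. PRDM14 takes part in silencing the DNA methylation machinery and in the return of pluripotency genes, and *Dppa3* (also Stella) encodes a protein that influences DNA methylation in germ cells and the early embryo. *Wsb2* encodes a WD40 repeat protein with a SOCS box, the part that joins substrate receptors to cullin ubiquitin ligases. *Ina* encodes alpha-internexin, an intermediate filament protein known from developing neurons, where it assembles with the neurofilament proteins. *Ggh* encodes gamma-glutamyl hydrolase, a lysosomal and secreted enzyme that removes the glutamate chain from folates, opposite to the folate-adding enzyme *Fpgs*.

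The cells came from crosses of C57BL/6 *Prdm14*+/- mice and were taken at E7.25-E7.5 from the base of the allantois bud. The labels give 13 cells as WT (*Prdm14* +/+), 13 as *Prdm14*+/- and 4 as *Prdm14* KO (*Prdm14* -/-), with genotypes from PCR, and they name no treatment or other allele. Every cell had been picked as *Prdm1*-positive by PCR, and *Prdm1* was above the floor in all 30, from 7.83 to 12.27. No embryo is named in the labels, so a genotype was taken as a sample of 1, every SD is over cells, and there are no p-values. The array codes fall into 3 runs. The 13 WT-labelled cells were split into 10 in run 1 and 3 in run 2, the 13 *Prdm14*+/- cells into 7 in run 2 and 6 in run 3, and all 4 KO-labelled cells were in run 3. No run holds both WT and KO.

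Values are log2 model-based expression indices (MBEI), in which a difference of 1 is a doubling. On each array 58.9% to 69.6% of 45101 probe sets were listed at 0. Means were taken after values below 6 (64 MBEI) were set to that floor, so a mean near 6 is an upper bound on the level. In a single amplified cell, a value of 0 cannot be told apart from a transcript lost in amplification. *Prdm14*, the targeted gene, had a mean of 7.40 ± 1.85 (SD, n = 13 cells) under the label WT, 9.70 ± 1.93 (SD, n = 13) under *Prdm14*+/- and 11.40 ± 0.98 (SD, n = 4) under *Prdm14* KO. Its transcript ran against the labels. The sources used here do not say if its probe set falls inside the deletion, and one outside it would check nothing. *Dppa3* had means of 9.05 ± 2.01, 10.23 ± 2.87 and 12.55 ± 0.38 in the same order, which by the deposited labels is the opposite direction to that drawn by the study. The study also drew on single-cell quantitative PCR, RNA-seq of *Prdm14* KO PGC-like cells and earlier immunostaining. It further used a PRDM14 ChIP-seq peak upstream of *Dppa3* in cultured cells. None of these is examined here. All directions below are those of the deposited labels.

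The 3 genes lie on different chromosomes. In RefSeq for GRCm38, *Wsb2* covers chr5:117357305-117378601, *Ina* chr19:47014681-47025327 and *Ggh* chr4:20041997-20066111. Sequences upstream of the start were held for *Wsb2* and *Ina*. They are shown because the genes share a rise over the labels and because PGCs of this stage are about to lose DNA methylation, which falls mostly on CG. Methylation was not measured in these cells, and any link between CG density and the levels was not tested. The 250 bases before each start are on the plus strand, 5′ to 3′, at chr5:117357055-117357304 and chr19:47014431-47014680, with every CG in capitals.

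Wsb2: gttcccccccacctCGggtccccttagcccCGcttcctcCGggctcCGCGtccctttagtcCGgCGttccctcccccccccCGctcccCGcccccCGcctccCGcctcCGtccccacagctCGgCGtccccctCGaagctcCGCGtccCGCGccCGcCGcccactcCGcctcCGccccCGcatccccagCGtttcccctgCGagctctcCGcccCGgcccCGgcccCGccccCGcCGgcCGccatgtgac
Ina: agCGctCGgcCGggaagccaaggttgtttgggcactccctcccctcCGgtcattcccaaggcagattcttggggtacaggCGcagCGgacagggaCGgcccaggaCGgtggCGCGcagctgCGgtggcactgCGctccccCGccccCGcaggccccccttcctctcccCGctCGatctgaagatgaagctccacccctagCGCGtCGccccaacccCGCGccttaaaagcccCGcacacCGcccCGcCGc

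The *Wsb2* stretch holds 33 CG and the *Ina* stretch 25. In the window of 300 bases that runs on past the start, *Wsb2* has 40 CG at a G+C content of 79.0% and *Ina* 32 at 71.7%. The median over 32851 such windows is 7 CG, and 3.91% of windows hold at least as many as *Wsb2* and 9.52% at least as many as *Ina*. Both starts are thus rich in CG. The letters GGTCTC, the core of the motif known for PRDM14, were searched on both strands. They occur in neither window and in 16.4% of all windows.

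*Wsb2* had the tightest level of the 3 genes in the cells labelled *Prdm14* KO. Its values there were 10.72, 10.96, 11.24 and 11.32. The 13 cells labelled *Prdm14*+/- ran from 0 through a median of 8.82 to 11.43, and the 13 labelled WT from 0 through 7.01 to 10.34. Every cell labelled KO lay above every cell labelled WT, whereas the cells labelled *Prdm14*+/- overlapped both. The means were 11.06 ± 0.28 (SD, n = 4), 9.09 ± 1.93 (SD, n = 13) and 7.51 ± 1.69 (SD, n = 13), with 4 of 4, 11 of 13 and 8 of 13 cells above the floor. The KO mean exceeded the WT mean by 3.55 (pooled SD between cells 1.52), and the *Prdm14*+/- mean by 1.97 (pooled SD 1.73). The step from WT to *Prdm14*+/- was 1.58, which is below its pooled SD of 1.81.

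The other *Wsb2* probe sets had lower levels. For 1421846_at the means were 6.57 ± 0.61, 7.26 ± 1.32 and 8.93 ± 0.62 from WT to *Prdm14*+/- to KO. The last one, 1438129_at, was listed at 0 in all 13 cells labelled WT and in 12 of the 13 labelled *Prdm14*+/-, the other one being at 5.59. In the 4 cells labelled KO it was at 5.59, 7.48, 7.62 and 9.01. This probe set therefore separated the KO label from the rest and showed no step between WT and *Prdm14*+/-, both of which had a floored mean of 6. Within label and run 1421846_at went with the main probe set (r = 0.52 over 30 cells). For 1438129_at, at the floor in all 26 cells not labelled KO, no such relation could be measured.

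*Ina* was at the floor in most cells labelled WT and above it in every cell labelled *Prdm14* KO. The values under the KO label were 9.62, 10.09, 11.03 and 11.50. Cells labelled *Prdm14*+/- ran from 0 through a median of 8.89 to 10.78, and cells labelled WT from 0 through 0 to 9.33. Here too all 4 KO-labelled cells were above all 13 WT-labelled cells, and the *Prdm14*+/- range reached into both. The means were 10.56 ± 0.86 (SD, n = 4), 8.57 ± 1.93 (SD, n = 13) and 7.04 ± 1.40 (SD, n = 13). *Ina* was above the floor in 4, 9 and 6 cells of these groups. KO exceeded WT by 3.52 (pooled SD 1.31) and *Prdm14*+/- by 1.99 (pooled SD 1.77), and *Prdm14*+/- exceeded WT by 1.53 (pooled SD 1.69).

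The lower *Ina* probe sets moved together from cell to cell, and the main one went with them less closely. Within label and run the lower ones, 1448991_a_at and 1448992_at, correlated at 0.97 with each other and at 0.59 and 0.55 with 1418178_at. Their means rose in the same order, from 6.49 ± 1.04 to 7.56 ± 1.61 to 9.21 ± 1.52 for 1448991_a_at and from 6.37 ± 0.81 to 7.31 ± 1.42 to 8.74 ± 1.84 for 1448992_at. The readings parted in several cells. KO-labelled cell 81 had 9.62 for 1418178_at, 6.99 for 1448991_a_at and 0 for 1448992_at. WT-labelled cells 49 and 64 had 8.81 and 8.83 for 1418178_at and 0 for both lower probe sets. The reverse held in WT-labelled cell 51, with 6.22, 8.32 and 8.00 in the same order of probe sets.

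*Ggh* had the smallest step from WT to *Prdm14*+/- of the 3 genes. Its 4 values under the KO label were 9.96, 10.10, 10.36 and 10.86. Cells labelled *Prdm14*+/- ran from 0 through a median of 7.46 to 10.87, and cells labelled WT from 0 through 7.30 to 9.12. The KO cells again lay above all WT cells, but the medians of the WT and *Prdm14*+/- cells were close. The means were 10.32 ± 0.40 (SD, n = 4), 7.90 ± 1.90 (SD, n = 13) and 7.24 ± 1.19 (SD, n = 13), with 4, 9 and 8 cells above the floor. KO exceeded WT by 3.07 (pooled SD 1.08) and *Prdm14*+/- by 2.42 (pooled SD 1.71). The step from WT to *Prdm14*+/- was 0.66 against a pooled SD of 1.58. For none of the 3 genes did this step exceed the spread of cells, and whether the steps differ between genes was not tested.

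**Figure D1:**
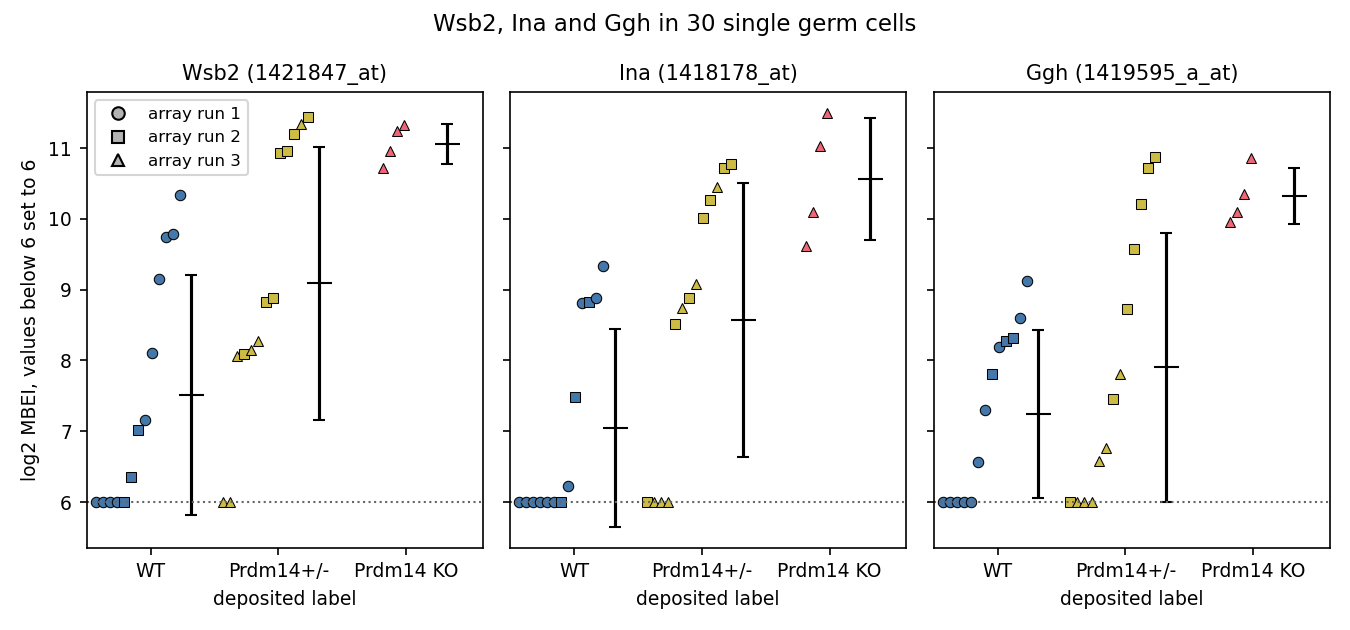
Log2 MBEI with values below 6 set to 6 (vertical axis, floor dotted) for *Wsb2*, *Ina* and *Ggh* in each cell by deposited label, with symbols for the array run and mean ± SD at the right of each group. The 4 KO-labelled cells lie at 10.72 or more for *Wsb2*, 9.62 or more for *Ina* and 9.96 or more for *Ggh*, above all 13 WT-labelled cells, and the *Prdm14*+/- cells spread from the floor to the KO range.

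In 6 of the 7 probe sets the mean rose at both steps, 1438129_at being the exception. Means rose at both steps in 25.3% of the 8527 genes above the floor in at least 10 cells, and by at least 0.5 at each step in 4.22%. The separation of all KO from all WT cells, seen for the main probe set of each of the 3 genes, occurred in 0.340% of them. These shares give the background against which the genes were picked, and the rule used the same contrast, so nothing is read from the members' own count. *Prdm14* itself separated less fully, with 3 of the 4 KO-labelled cells above every WT-labelled cell. The same 3 of 4 held for the *Wsb2* probe set 1438129_at and for the *Ina* probe sets 1448991_a_at and 1448992_at. The median KO minus WT difference over the 8527 genes was 0.12.

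Counted per cell, all 4 cells labelled KO had all 3 genes above the floor. Under *Prdm14*+/- this held for 8 cells, with 2 cells having 2 genes, 1 having 1 and 2 having none. Under WT it held for 3 cells, with 4 cells having 2 genes, 5 having 1 and 1 having none. Most WT-labelled cells thus had some of the 3 transcripts but seldom all of them.

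The array runs divided the *Prdm14*+/- label. Its 7 cells of run 2 had means of 10.04 ± 1.39 for *Wsb2*, 9.31 ± 1.70 for *Ina* and 9.08 ± 1.81 for *Ggh* (SD, n = 7). Its 6 cells of run 3 had 7.97 ± 1.96, 7.71 ± 1.96 and 6.53 ± 0.71 (SD, n = 6). The run 2 cells were higher by 2.07, 1.60 and 2.56, for *Wsb2* and *Ggh* more than the pooled SDs of 1.67 and 1.42, and for *Ina* less than the 1.82 between cells. *Prdm14* divided the same way, at 10.42 in run 2 and 8.85 in run 3, and so did *Dppa3*, at 11.26 and 9.02. Embryo and run cannot be told apart here, since the labels name no embryo.

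The WT-labelled cells of run 1 averaged 7.83 ± 1.81 for *Wsb2*, 6.93 ± 1.45 for *Ina* and 6.98 ± 1.24 for *Ggh* (SD, n = 10). The *Prdm14*+/- cells of run 3 were therefore 0.15 and 0.79 higher for *Wsb2* and *Ina* and 0.45 lower for *Ggh*, all below the pooled SDs of 1.86, 1.65 and 1.08 and all across runs. The middle position of the *Prdm14*+/- mean thus came mainly from its run 2 cells. The *Ggh* mean of the run 3 *Prdm14*+/- cells was the lowest of the 5 label-and-run groups.

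Within a run the comparisons kept their direction, but they reuse the cells and labels by which the genes were chosen and are descriptions only. In run 3, KO-labelled cells exceeded *Prdm14*+/- cells by 3.09 for *Wsb2* (pooled SD 1.56), 2.85 for *Ina* (pooled SD 1.64) and 3.79 for *Ggh* (pooled SD 0.61). For *Ggh* the 4 KO values did not overlap the 6 *Prdm14*+/- values, whose highest was 7.81. The share of all genes that separate so within run 3 was not counted, so nothing is read from it. For *Wsb2*, *Prdm14*+/- cell 98 at 11.34 exceeded all 4 KO values, and for *Ina* cell 99 at 10.45 exceeded 2 of them.

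In run 2, *Prdm14*+/- cells exceeded the 3 WT-labelled cells by 3.59 for *Wsb2* (pooled SD 1.23), with no overlap. The same difference was 1.87 for *Ina* (pooled SD 1.63) and 0.95 for *Ggh* (pooled SD 1.58), with overlap in both. How many of all genes separate these small groups as *Wsb2* does was not counted either. The WT-labelled cells of this run were cell 61 at 7.01 for *Wsb2*, 0 for *Ina* and 8.27 for *Ggh*, cell 64 at 6.36, 8.83 and 8.32, and cell 65 at 0, 7.49 and 7.80. In them *Ggh* was steady while *Ina* ranged from 0 to 8.83. With run as a block, which compares KO with WT only through the *Prdm14*+/- cells and those 3 cells, the KO minus WT difference was 6.67 for *Wsb2*, 4.72 for *Ina* and 4.74 for *Ggh*.

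**Figure D2:**
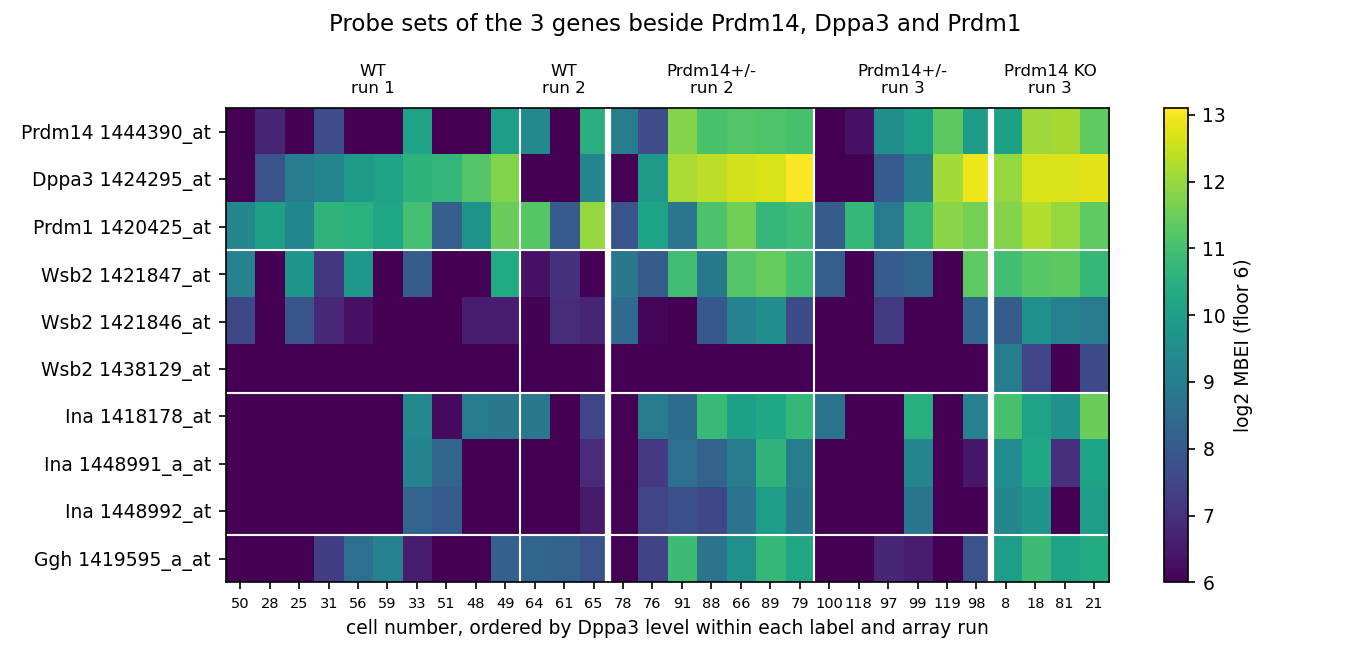
Log2 MBEI (colour, floor 6) of *Prdm14*, *Dppa3*, *Prdm1* and the 7 probe sets of the 3 genes (rows) in the 30 cells (columns), grouped by deposited label and array run and ordered by *Dppa3* in each group. The KO-labelled cells and most run 2 *Prdm14*+/- cells are bright in *Wsb2*, *Ina* and *Ggh*, and 1438129_at is above the floor in 3 KO-labelled cells alone.

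Whether the genes follow *Prdm14* and *Dppa3* from cell to cell was asked after each cell's value was set against the mean of its own label and run. These deviations do not use the differences between labels by which the genes were chosen. Cells of a group can share an embryo, and all genes of a cell share its amplification, so the correlations are descriptions and carry no p. *Prdm14* and *Dppa3* themselves had r = 0.66 over the 30 cells, measured this way.

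*Ggh* followed *Dppa3* the most closely, with r = 0.57 (Spearman rho 0.46, 30 cells), and *Prdm14* with r = 0.37 (rho 0.45). An r with *Dppa3* as high as that was found in 0.751% of 8525 other genes, and an r with *Prdm14* as high in 5.75%. *Ina* had r = 0.49 with *Dppa3* (rho 0.45) and 0.39 with *Prdm14* (rho 0.36), levels reached by 1.92% and 4.62% of genes. *Wsb2* was the loosest, with 0.27 for *Dppa3* (rho 0.21) and 0.30 for *Prdm14* (rho 0.32), which 12.6% and 10.3% of genes reached. The central 90% of genes lay between -0.41 and 0.40 in the case of *Dppa3*. For *Prdm14* it spanned -0.38 to 0.39. *Wsb2* was thus inside that range for both, *Ggh* inside it for *Prdm14*, and *Ina* at its upper edge for *Prdm14*.

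**Figure D3:**
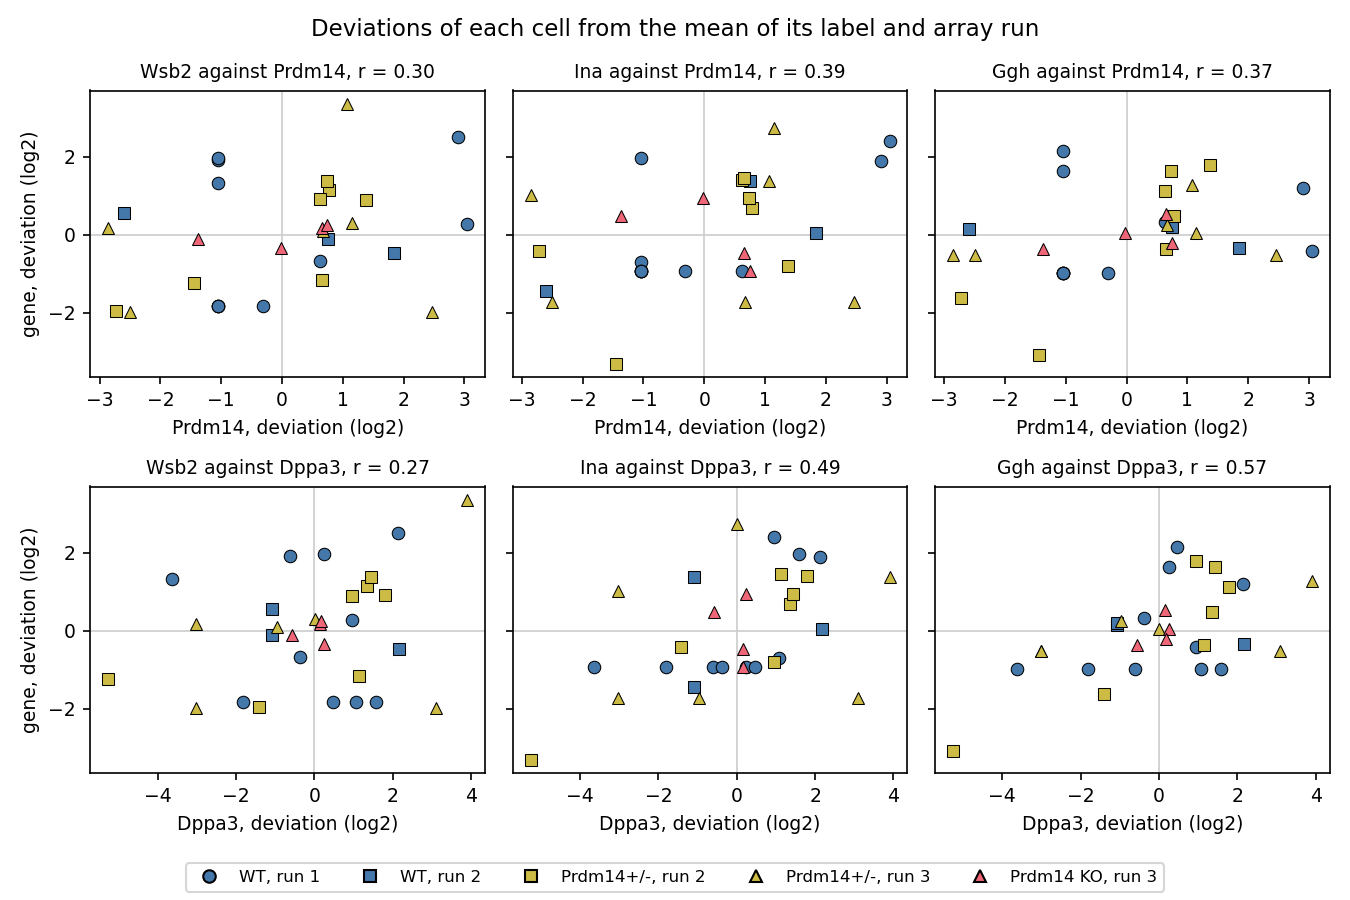
Deviation of *Wsb2*, *Ina* and *Ggh* (vertical axes, log2) against that of *Prdm14* (upper panels) and *Dppa3* (lower panels, horizontal axes, log2), each point being 1 cell relative to the mean of its label and array run. The r over 30 cells runs from 0.27 for *Wsb2* against *Dppa3* to 0.57 for *Ggh* against *Dppa3*, and 1 run 2 *Prdm14*+/- cell lies at the lower left of the *Ina* and *Ggh* panels for *Dppa3*.

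Single cells carried much of these values. *Prdm14*+/- cell 78 of run 2 was listed at 0 for *Dppa3*, *Ina* and *Ggh* alike, with *Wsb2* at 8.82 and *Prdm14* at 8.97. Without it, a choice made after seeing the data, r with *Dppa3* was 0.39 for *Ggh* and 0.33 for *Ina*. *Prdm14*+/- cell 119 of run 3 went the other way, with *Prdm14* at 11.32 and *Dppa3* at 12.12 but the main probe set of all 3 genes at 0. Without that cell the r with *Dppa3* was 0.63 for *Ggh* and 0.61 for *Ina*, and r between *Wsb2* and *Prdm14* was 0.42. High *Prdm14* and *Dppa3* transcript in a cell was thus not always accompanied by the 3 genes.

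The relation also varied between groups of cells. In the 7 *Prdm14*+/- cells of run 2, r with *Dppa3* was 0.66 for *Wsb2*, 0.92 for *Ina* and 0.90 for *Ggh*, and r with *Prdm14* was 0.81, 0.52 and 0.83. In the 6 *Prdm14*+/- cells of run 3 the values with *Dppa3* were 0.42, 0.13 and 0.60, and with *Prdm14* 0.17, 0.03 and 0.40. In the 10 WT-labelled cells of run 1 they were -0.07, 0.63 and 0.36 with *Dppa3* and 0.32, 0.70 and 0.16 with *Prdm14*. Of the 18 r values, 17 were above 0. The r of the 3 genes were highest in run 2 except for *Ina* with *Prdm14*, which was highest in run 1. The run 2 cells include cell 78, listed at 0 for *Dppa3*, *Ina* and *Ggh*. By rank the run 2 values were weaker for some pairs. Spearman rho of *Wsb2*, *Ina* and *Ggh* there was 0.82, 0.75 and 0.61 with *Dppa3* and 0.68, 0.07 and 0.79 with *Prdm14*. The difference between these groups was not tested.

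Among the other probe sets, the *Ina* ones kept positive values, at 0.38 and 0.26 with *Prdm14* and 0.41 and 0.33 with *Dppa3* for 1448991_a_at and 1448992_at. For the second *Wsb2* probe set, 1421846_at, they were near 0, at 0.13 with *Prdm14* and 0.11 with *Dppa3*. With *Prdm1*, which all the cells were picked for, r was 0.16 for *Wsb2*, 0.45 for *Ina* and 0.37 for *Ggh*. The number of probe sets above 0 on an array, 13695 to 18535, is a measure of how much of a cell's RNA was detected, and it had r = -0.12 with *Wsb2*, 0.03 with *Ina* and -0.36 with *Ggh*.

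**Figure D4:**
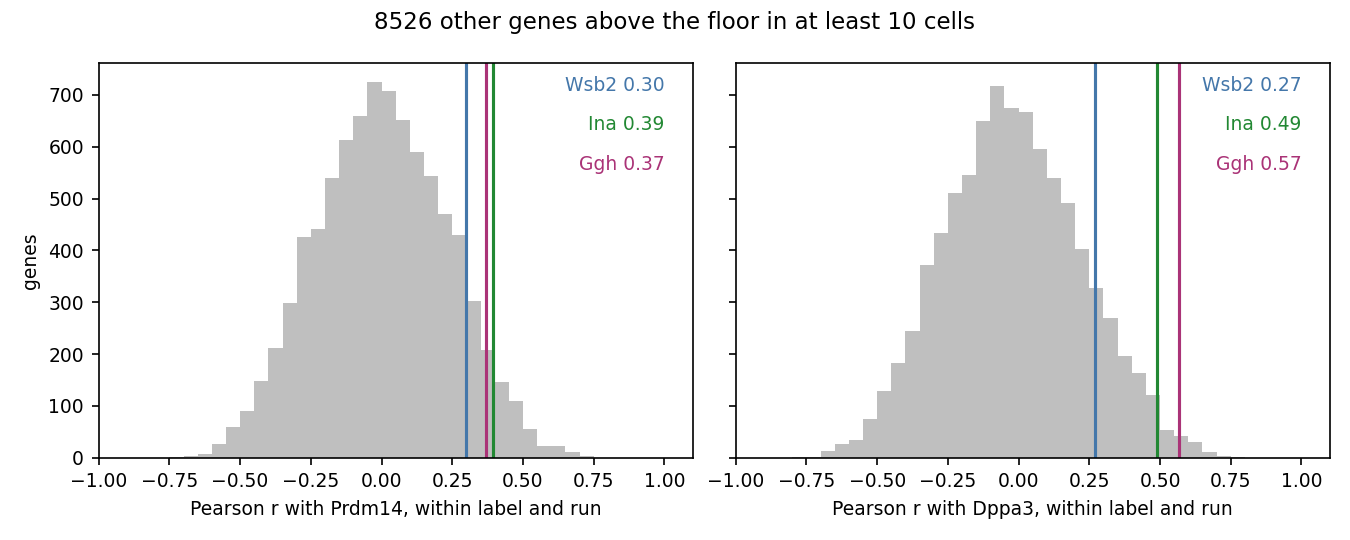
Number of genes (vertical axes) by Pearson r within label and array run with *Prdm14* (left) and *Dppa3* (right) over 30 cells, for the 8526 other genes above the floor in at least 10 cells. Vertical lines mark *Wsb2* (0.30 and 0.27), *Ina* (0.39 and 0.49) and *Ggh* (0.37 and 0.57).

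Between each other, *Wsb2* and *Ggh* were the closest pair within label and run (r = 0.50), ahead of *Wsb2* with *Ina* (0.31) and *Ina* with *Ggh* (0.30). Over all 30 cells with no grouping, which adds the label differences used to choose them, the same pairs had 0.67, 0.60 and 0.61. The second *Wsb2* probe set, 1421846_at, did not share the closeness, with r = 0.07 with *Ggh* and -0.01 with *Ina* within label and run. The genes most like each member were ranked by the ungrouped r of its main probe set. For *Wsb2* they were *Txlng* (0.80), *Ybx2* (0.74), *Klf2* (0.71), *Slc39a14* (0.70) and *Stard9* (0.68), with *Ggh* in place 10 and *Ina* in place 35. *Ybx2* encodes a germ cell Y-box protein that binds nucleic acids, *Klf2* a Kruppel-like transcription factor of naive pluripotency and *Slc39a14* a zinc transporter.

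For *Ina* the list was *Gnb1*, *Tomm34* and *Ddhd1* (0.72 each), then *Txlng* and *Ybx2* (0.71 each), with *Prdm14* in place 12 and *Dppa3* in place 26. *Gnb1*, a G protein beta subunit, and *Tomm34*, a cochaperone of mitochondrial import, were above the floor in all 30 cells. For *Ggh* it was *Ddx58* (0.76), which encodes the RNA sensor RIG-I, *Zfp53* (0.71), *Tedc1* (0.70), *Shfl* (0.69), an interferon-induced inhibitor of translational frameshifting, and *Ybx2* (0.69). *Dppa3* stood in place 19 and *Prdm14* in place 20. *Ybx2* was on all 3 lists. Its means were 6.99, 7.87 and 9.71 from WT to *Prdm14*+/- to KO, and within label and run it had r = 0.66 with *Wsb2*, 0.56 with *Ina* and 0.55 with *Ggh*. The same cells placed *Ybx2* on the lists, so these r are raised by that choice and are not separate support.

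Genes that work with each member were then compared between the KO and WT labels, counting differences of at least 1. Over all 18194 genes 7.90% were higher by that much under the KO label and 4.32% were lower, with a median difference of 0. Of these genes 4931 were at the floor in every cell and could not differ, so the shares among detected genes are higher. Of the 33 measured genes of cullin-5 ligases and SOCS box proteins, 5 were higher and 4 lower, with a median of 0.12. Of the shared subunits, the cullin *Cul5* differed by -0.05, its RING partner *Rnf7* by 0.33, *Elob* by 0.13 and *Eloc* by 0.33. With run as a block these were -1.34, 0.03, -0.07 and 0.06, so that *Cul5* passed 1 downward and *Elob* changed sign. Among the receptors *Socs2* (2.02, pooled SD 1.83) and *Socs5* (1.89, pooled SD 1.80), which restrain cytokine and growth factor signalling, were higher. *Socs6* (-1.42, pooled SD 1.65) and *Socs7* (-1.31, pooled SD 1.89) of the same family were lower. *Asb4* (-1.39, pooled SD 1.41) and *Pcmtd1* (-1.66, pooled SD 1.19) were also lower, while *Pcmtd2* (1.67, pooled SD 1.59) was higher. Against *Prdm14*+/- cells in run 3, *Socs2*, *Socs5*, *Socs6* and *Socs7* differed by 2.98, 3.06, -0.16 and -0.63. With run as a block their KO minus WT differences were 2.47, 3.81, -3.26 and -0.89.

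*Wsb1*, the closest relative of *Wsb2*, was higher by 1.03, less than its pooled SD of 1.41, and with run as a block the difference was -0.19. It was above the floor in all 30 cells.

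The neurofilament subunits that assemble with alpha-internexin were compared next, beside other filament genes. Of 20 intermediate filament genes, 1 was higher and 4 were lower under the KO label (median -0.10). *Nefm*, the medium neurofilament subunit, was at 10.07 in cells labelled WT and 7.41 in those labelled KO, a difference of -2.66 against a pooled SD of 2.47, and was above the floor in 10 of 13 and 1 of 4 cells. The light subunit *Nefl* differed by -0.92 (pooled SD 1.92), and *Nefh* and the peripheral neuron filament *Prph* were at the floor in every cell. The epithelial keratin *Krt18* was at 10.25 in WT-labelled and 8.25 in KO-labelled cells and *Krt8* at 9.63 and 8.57, differences below their pooled SDs of 2.16 and 1.92, and *Vim*, the filament of mesenchymal cells, was nearly level at 12.38 and 12.29.

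Of 12 neural markers, 0 were higher by at least 1 under the KO label than under WT and 2 were lower. These were *Stmn2*, a microtubule regulator of growing axons (from 10.37 to 7.89, pooled SD 1.20), and *Sox3* (-1.02, pooled SD 1.64). The *Sox3* difference turned to 0.89 with run as a block and was 1.45 for KO minus *Prdm14*+/- in run 3. The neural progenitor filament *Nes* was higher under *Prdm14*+/-, at 7.45 ± 0.68 against 6.20 ± 0.48 under WT and 6.67 ± 0.77 under KO, with 11 of 13, 2 of 13 and 2 of 4 cells above the floor. *Tubb3*, a neuronal tubulin, was above the floor in 5, 1 and 0 cells of these groups. The transcription factor genes *Sox1* and *Pax6* and the RNA-binding protein gene *Elavl3*, which define neural cells, were at the floor in all 30 cells. The mean level over the 12 genes ran from 6.42 to 7.13 in WT-labelled cells, from 6.12 to 7.47 in *Prdm14*+/- cells and from 6.21 to 6.97 in KO-labelled cells, so the groups overlapped.

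For *Ggh*, folate genes and lysosomal genes were compared. Of 26 genes of folate and one-carbon metabolism, 3 were higher and 3 lower, with a median of -0.08. The higher ones were *Slc25a32* (1.28, pooled SD 1.23), *Gldc* (1.12, pooled SD 1.27) and *Shmt1* (1.01, pooled SD 1.37). The lower ones were *Mthfd1l* (-1.92, pooled SD 1.18), *Shmt2* (-1.37, pooled SD 1.21) and *Mtr* (-1.22, pooled SD 1.27). *Slc25a32* brings folate into mitochondria, and *Mthfd1l* and *Shmt2* are mitochondrial folate enzymes. *Fpgs*, whose product adds the glutamates that *Ggh* removes, was 0.85 higher, less than its pooled SD of 1.77, and the difference turned to -0.75 with run as a block and was -0.95 against *Prdm14*+/- cells in run 3. At the floor of 6 the folate genes thus showed no common direction, and at a floor of 8 the list had 0 genes higher and 1 lower.

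Of 28 lysosomal genes, 7 were higher and 2 lower (median 0.13). The greatest difference was that of *Glb1*, the lysosomal beta-galactosidase, at 6.59 ± 1.47 in WT-labelled, 7.83 ± 2.14 in *Prdm14*+/- and 9.67 ± 1.10 in KO-labelled cells. That is 3.08 between KO and WT with a pooled SD of 1.40. *Gaa*, the acid alpha-glucosidase, was higher by 1.89 (pooled SD 0.93) and *Hexa*, a beta-hexosaminidase subunit, by 1.54 (pooled SD 0.87), while *Ctsc*, the protease cathepsin C, was lower by 1.47.

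**Figure D5:**
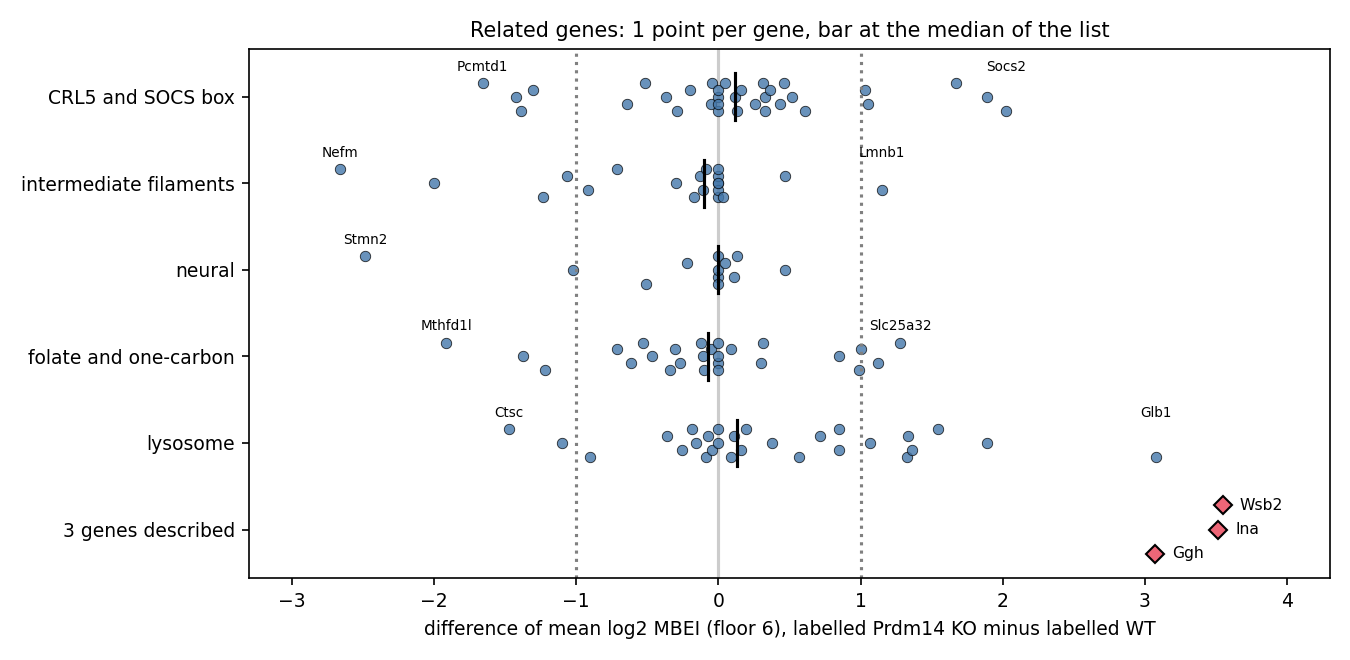
KO minus WT difference of mean log2 MBEI (floor 6, horizontal axis) for each gene of the 5 related lists, with the list's median as a bar, dotted lines at -1 and 1, and the 3 genes described as diamonds. *Wsb2* (3.55), *Ina* (3.52) and *Ggh* (3.07) lie at the right end of the axis with *Glb1* (3.08), and the list medians lie between -0.10 and 0.13.

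Markers of the cell types that the dissected region could hold were compared as well. Of 9 germ cell genes, 7 were higher by at least 1 under the KO label and 0 lower (median 1.73). The mean over the 9 ran from 11.14 to 11.93 in KO-labelled, 7.34 to 11.40 in *Prdm14*+/- and 7.62 to 11.10 in WT-labelled cells. Count and mean include *Dppa3* and *Prdm14*, whose rise was the pattern for choosing the members. The others higher were *Itgb3* (2.49, pooled SD 0.82), *Kit* (1.77, pooled SD 1.66), *Prdm1* (1.73, pooled SD 1.09), *Tfap2c* (1.23, pooled SD 1.45) and *Alpl* (1.08, pooled SD 0.96). *Dnd1* (0.99) and *Ifitm3* (0.76) fell short of 1. With run as a block the *Alpl* difference was -0.006, and 8 of the 9 germ cell genes were higher by at least 1. *Itgb3* was at the floor in all 13 WT-labelled cells. Of 8 somatic mesoderm genes 0 were higher and 3 lower (median -0.83). The 3 were *Mesp1* (-1.19, pooled SD 2.83), *Msx2* (-1.07, pooled SD 1.04) and *Hand1* (-1.04, pooled SD 1.61). Means over the 8 genes were 8.27 to 10.02 in KO-labelled, 7.71 to 10.97 in *Prdm14*+/- and 8.50 to 10.51 in WT-labelled cells. At a floor of 8, 6 germ cell genes were higher and 0 mesoderm genes lower. The part of these markers in the levels of *Wsb2*, *Ina* and *Ggh* was not tested. Of 5 genes listed for extraembryonic ectoderm 1 was higher and 1 lower. The higher one was *Sox2*, known also as a pluripotency gene that PGCs regain, at 7.58 ± 2.11, 9.73 ± 2.56 and 12.48 ± 0.23 from WT to *Prdm14*+/- to KO, a KO minus WT difference of 4.90, and the lower one was *Tfap2a* (-1.50, pooled SD 1.55). Of 5 endoderm genes 1 was higher, *Sox17* (1.10, pooled SD 2.06), and 0 were lower.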

How the data were processed

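Expression was measured in 30 single cells, 1 Affymetrix mouse genome array each. Single-cell cDNA was amplified, and the authors computed model-based expression indices in dChip 1.3 (PM/MM difference model) and deposited them as log2 MBEI. The sources used here do not give any scaling between arrays or say how a value of 0 came about, which limits comparisons of levels across runs. Values were not rescaled.

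Of 45101 probe sets, 34958 had 1 gene symbol in the platform annotation, 932 had several and 9211 are unnamed here. Symbols and positions follow RefSeq for GRCm38. Each gene was read from its probe set of highest mean. Values were floored at 6. Groups came from the deposited labels, and the array run from the array codes. No 2 arrays held identical values, and pairs correlated at 0.578 to 0.737. The number of arrays limits precision.

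Group means were compared as differences beside the pooled SD. With 1 sample per genotype there was no test. Cell-to-cell relations are Pearson r of deviations from the 5 label-and-run means. Genes most alike were the 5 with the highest r over 30 cells among genes above the floor in at least 10. From each related list up to 4 genes per direction could be named, with the closest relatives. Of the list symbols 11 were not found. The members and lists were chosen with earlier results of these data known. Alternatives were floors of 4 and 8, scaling, all probe sets of a gene, run blocks, single runs and left-out cells. Scripts were tested on simulated data. Python 3.11.15, NumPy 2.4.6, pandas 2.3.3, SciPy 1.17.1 and matplotlib 3.10.9 were used.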

Additional observations from a re-analysis of the deposited data

Results flagged for a closer look

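Among 7 sets of KO-labelled cells examined, 1 for each probe set of the 3 genes, 1 had a cell far from the others. For *Ina* probe set 1448992_at, cell 81 was listed at 0 while the other 3 cells lay at 9.30, 9.70 and 9.95. With that cell set to the floor of 6, the gap made up 0.834 of the range, above Dixon's limit for groups of this size. At a floor of 8 it was 0.66, below the limit. Chance marks about 1 in 20 such groups, and the cause was not tested.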

How the results depend on the processing

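All 90 alternative values of the differences between labels kept their direction, and 86 moved by less than the pooled SD. The genes were picked by the rise of these means in the same cells, so the kept direction is no separate support. With run as a block, KO minus WT was 6.675 for *Wsb2* and 4.743 for *Ggh*, and *Prdm14*+/- minus WT was 3.588 for *Wsb2*, as in run 2 alone. These values rest on the 3 WT-labelled cells of run 2. Leaving out each KO-labelled cell in turn gave KO minus WT differences of 3.461 to 3.663 for *Wsb2*, 3.203 to 3.83 for *Ina* and 2.893 to 3.192 for *Ggh*, and KO minus *Prdm14*+/- differences of 1.883 to 2.085, 1.674 to 2.301 and 2.235 to 2.535.

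Of 114 alternative values of r, 113 were above 0, and 95 lay within 0.2 of the values given above. With no grouping r was 0.6299 for *Ggh* and 0.6673 for *Ina* with *Prdm14*, and 0.5699 and 0.5656 for *Wsb2* with *Dppa3* and *Prdm14*. With run means alone removed the last pair was 0.5642 and 0.5085, and at a floor of 8 *Wsb2* had 0.5387 with *Dppa3*. Without the 2 cells farthest from the median of *Dppa3*, *Ggh* had 0.3463 with it. In the *Prdm14*+/- cells of run 2 alone, cell 78 included, r with *Dppa3* was 0.8971 for *Ggh*, 0.9155 for *Ina* and 0.6558 for *Wsb2*. The r with *Prdm14* was 0.8268 for *Ggh* and 0.809 for *Wsb2*. In those of run 3 alone *Ina* had 0.1309 with *Dppa3* and 0.02845 with *Prdm14*. In the WT-labelled cells of run 1 alone *Ggh* had 0.3575 and 0.1588, *Ina* had 0.6983 with *Prdm14*, and *Wsb2* turned to -0.07215 with *Dppa3*. The causes were not tested. The 5 related lists held 16 genes higher and 15 lower by at least 1, which became 25 and 19 with run as a block and 7 and 5 at a floor of 8. *Ggh* has 1 probe set, so the mean over probe sets was not run for it. No paired analysis was possible because the cells are unpaired between labels. With most values at the floor in some groups, small differences between low levels were not measurable.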
